A study of Homo sapiens with 8 samples.

Results

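The genes described here are 9 parts of the machinery that presents peptides on MHC class I molecules: the heavy chain genes HLA-B, HLA-C and HLA-E, the light chain gene B2M, the peptide transporter genes TAP1 and TAP2, the immunoproteasome subunit genes PSMB8 and PSMB9, and the transactivator gene NLRC5. They were listed by name, with no threshold on a measured value, though earlier results of these data were known when they were chosen. Each was found as 1 of the 63241 gene rows of the count table. The labels of all 8 RNA-seq libraries name HSC3, an established human line from a squamous cell carcinoma of the tongue. By their labels, 4 libraries came from cells given an siRNA against COL1A1 and 4 from cells given a non-targeting siRNA, both at 100 pmol with a lipid reagent and collected 48 hours later. The titles of the first 4 read KD, but their columns of the count table are named COL1A1-KO. The sources used here do not explain this difference. All libraries carry the label of 1 line, HSC3, and whether replicates were separate cultures is not stated. The labels thus do not say what kind of replicate the tests use. Differences are weighed against the spread of libraries that also differ widely in tissue markers, as given below. The series title is about loss of COL1A1 and epithelial-mesenchymal transition, migration and invasion. The labels name no question about antigen presentation.

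Values are read counts per 1000000 counts of the library (CPM) unless another scale is named, and replicates are given in the order 1 to 4. COL1A1, the targeted collagen gene (chr17:50183289-50201632, minus strand), stood at 368, 123, 301 and 155 CPM in the libraries labelled knockdown and at 88.9, 8183, 476 and 689 CPM in those labelled control. The groups overlapped, and control 1 was the lowest of the 8. Its log2 fold change was -2.97 (SE 1.30, adjusted p = 0.981 by edgeR's quasi-likelihood test), and -0.48 without control 2. Total counts ran from 30684584 to 61795990 per library. Squamous keratinocyte markers took 0.0599% to 23.2% of counts, skeletal muscle markers 0.00557% to 16.2% and salivary gland markers 0.00353% to 21.4%. Muscle and gland markers at such levels go against the label of a single carcinoma line. Knockdown 2, knockdown 4, control 1 and control 3 each had more than 1% of counts in the muscle or the gland list. Groups are therefore named by their labels, and results are also given without these 4 libraries.

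Class I molecules carry peptides cut from proteins of the cytosol to the cell surface, where cytotoxic T cells read them. The proteasome cuts the protein, the TAP1-TAP2 transporter moves the peptides into the endoplasmic reticulum, and a loading complex fits them onto a heavy chain paired with beta-2-microglobulin. Interferon gamma, in part through IRF1, raises most genes of the pathway, among them immunoproteasome subunits that take the place of constitutive catalytic subunits. NLRC5 acts on class I promoters together with factors that bind a conserved set of boxes, and loss of the pathway is a known route by which oral and other carcinomas escape T cells.

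Of the 9 genes, 7 lie on chromosome 6 in the major histocompatibility complex. Positions are those of GENCODE release 29 on GRCh38, the assembly also called hg38; the annotation release used for the counts is not given in the sources used here. HLA-C (chr6:31268749-31272130) and HLA-B (chr6:31269491-31357188) lie on the minus strand and HLA-E (chr6:30489467-30494205) on the plus strand. TAP2 (chr6:32821833-32838780), PSMB8 (chr6:32840717-32844703) and TAP1 (chr6:32845209-32853978) follow each other on the minus strand, with PSMB9 (chr6:32844136-32859585) on the plus strand over the same stretch. B2M lies at chr15:44711487-44718877 and NLRC5 at chr16:56989485-57083531, both on the plus strand. Other annotated genes cover 32.3% of the exon bases of TAP2, 20.6% of those of PSMB8, 18.9% of HLA-B, 9.49% of TAP1, 5.66% of PSMB9 and 1.40% of HLA-C, and 0% of those of HLA-E, B2M and NLRC5. Since no strand setting is given, reads of HLA-B, TAP1, PSMB8 and PSMB9 cannot be told apart from reads of the opposite-strand transcripts that overlap them. HLA-B and HLA-C are near-identical over long stretches and vary between people, so reads can be lost or split between them; how far was not tested.

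Promoter windows of RefSeq (GRCh38.p14), from 250 bases before to 50 after a transcription start, were given for 7 of the 9 genes, as 9 windows since TAP1 and PSMB8 have 2 starts each; HLA-E and NLRC5 were not matched. The windows are shown because the levels of the 9 genes varied alike across the libraries. The 250 bases before the start follow, on the gene's own strand, for HLA-B (chr6:31357180-31357429, minus), HLA-C (chr6:31272093-31272342, minus), B2M (chr15:44711267-44711516, plus) and the first of the TAP1 starts (chr6:32853705-32853954, minus), 5′ to 3′. Capitals mark letters that match, on either strand, AANNGAAA (the core of an interferon regulatory factor site), TTCNNNGAA (a gamma-activated site), CCAAT (the CCAAT box), the letters TGACG (part of a cyclic AMP response element) or the NF-kB motif.
HLA-B: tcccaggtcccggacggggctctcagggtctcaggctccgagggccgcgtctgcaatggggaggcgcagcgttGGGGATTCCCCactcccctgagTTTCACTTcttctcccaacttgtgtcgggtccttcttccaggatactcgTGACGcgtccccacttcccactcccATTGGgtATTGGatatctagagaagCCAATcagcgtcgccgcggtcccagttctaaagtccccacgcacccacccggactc
HLA-C: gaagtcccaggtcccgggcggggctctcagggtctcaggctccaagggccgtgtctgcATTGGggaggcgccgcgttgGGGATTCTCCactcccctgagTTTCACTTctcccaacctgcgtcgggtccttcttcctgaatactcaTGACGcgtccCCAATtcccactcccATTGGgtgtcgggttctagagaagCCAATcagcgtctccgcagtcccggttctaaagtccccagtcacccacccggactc
B2M: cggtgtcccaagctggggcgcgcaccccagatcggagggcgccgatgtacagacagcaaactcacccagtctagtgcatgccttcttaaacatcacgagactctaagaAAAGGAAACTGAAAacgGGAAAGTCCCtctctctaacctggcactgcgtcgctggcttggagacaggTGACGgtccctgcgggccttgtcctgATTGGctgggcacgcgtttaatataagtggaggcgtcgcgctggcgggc
TAP1: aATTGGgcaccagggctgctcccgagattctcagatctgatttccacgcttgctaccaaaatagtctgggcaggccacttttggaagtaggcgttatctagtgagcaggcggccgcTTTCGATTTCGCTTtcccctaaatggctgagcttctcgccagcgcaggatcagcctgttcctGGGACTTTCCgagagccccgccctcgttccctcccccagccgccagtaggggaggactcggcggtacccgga

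The motif AANNGAAA was found in 6 of the 9 windows, which belong to 6 of the 7 genes, all but PSMB9, and in 22.8% of all 35116 windows of this length. A TTCNNNGAA match was found in 2 of the 9 windows (7.66% of all windows), in 1 of PSMB8 and in the second of TAP1, which is not printed. The NF-kB motif was found in 4 windows, those of HLA-B, HLA-C and B2M and the first of TAP1 (11.3% of all windows), TGACG in 6 (24.6%), CCAAT in 5 (34.6%) and the GC box GGGCGG, which is not capitalised, in 7 (44.95%). In the windows of HLA-B, HLA-C and B2M a TGACG was followed by a CCAAT (read on either strand) 25, 25 and 26 bases further on, counted from first base to first base. A pair of these motifs spaced by 20 to 30 bases was found in 0.826% of all windows. The PSMB9 start lies 488 and 1431 bases from the first and second TAP1 start, on the opposite strand, and its window shares 13 bases with that of the first. These are matches of letters in a window; the motif letters were settled after the windows had been read, and no binding was measured.

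All 9 genes were detected in all 8 libraries, and the lowest count of any was 240 (PSMB9). Their levels differed more between libraries of 1 label than between the labels. Control 2 and knockdown 3 were among the 3 highest libraries for all 9 genes, and knockdown 1 for 6. Control 1 was the lowest for 7 of the 9. Summed over the 9 genes, the level was 3442, 3548, 7867 and 1764 CPM in the knockdown-labelled libraries and 1495, 9787, 1899 and 2137 CPM in the control-labelled libraries. In bulk RNA such as this, fewer cells of a type and less RNA per cell cannot be told apart.

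**Figure D1:**
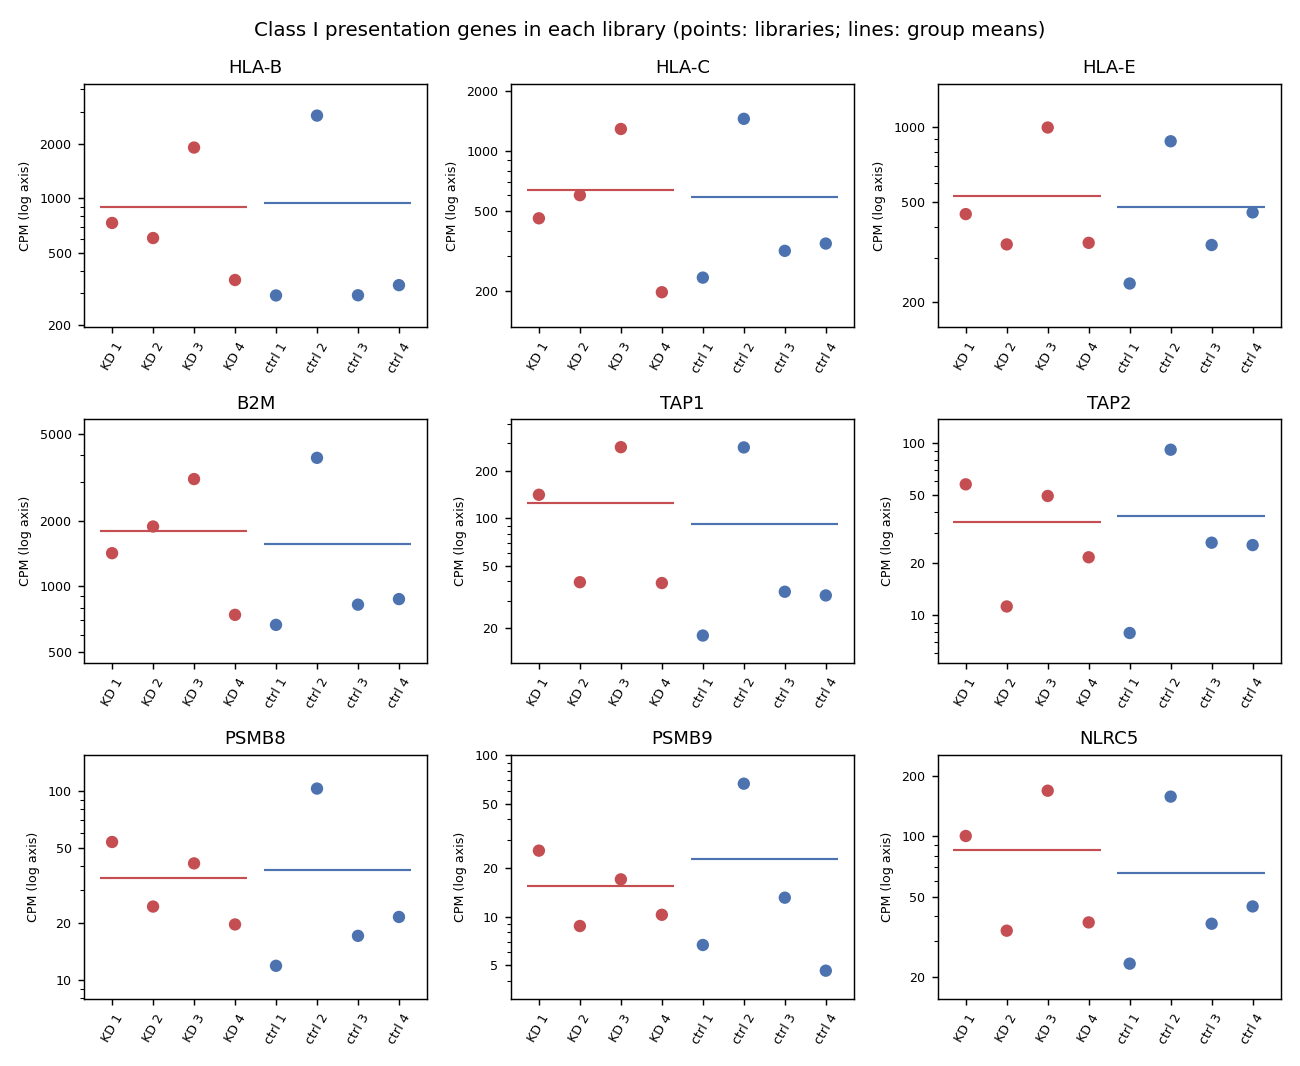
Level of each of the 9 class I genes in every library, in CPM on a log axis; red points are libraries labelled knockdown (KD), blue points those labelled control (ctrl), and lines are group means. Control 2 was highest for 6 genes and knockdown 3 for 3, and the groups overlapped for all 9.

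HLA-B, a classical heavy chain that presents peptides to cytotoxic T cells, stood at 733, 605, 1908 and 355 CPM in the knockdown-labelled libraries. In the control-labelled ones it stood at 292, 2862, 293 and 333 CPM. All but 1 of the controls lay below the whole knockdown range, and control 2 lay above it. HLA-C, the classical chain best known as a ligand of inhibitory receptors on natural killer cells, stood at 461, 602, 1291 and 197 CPM against 233, 1452, 317 and 345 CPM. Knockdown 4 was its lowest library and control 2 its highest. HLA-E, which shows leader peptides of other class I chains to the CD94-NKG2A receptor, stood at 449, 339, 999 and 344 CPM against 236, 879.6, 337 and 456 CPM. It was highest in knockdown 3, and it had the narrowest span of the 9 genes, with the highest library 4.23 times the lowest. That ratio was 9.80 for HLA-B and 7.38 for HLA-C.

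B2M encodes beta-2-microglobulin, the invariant light chain without which most heavy chains do not reach the surface. Its level was 1421, 1884, 3109.6 and 740.5 CPM in the knockdown-labelled libraries and 666, 3892, 825 and 875 CPM in the control-labelled libraries. The 3 controls other than control 2 were below all but 1 of the knockdown libraries, and the highest library was 5.84 times the lowest.

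TAP1 and TAP2 form the transporter that moves peptides into the endoplasmic reticulum. TAP1 stood at 141, 39.3, 284 and 38.9 CPM in the knockdown-labelled libraries and at 18.0, 283, 34.2 and 32.4 CPM in the control-labelled libraries. It spanned 15.8-fold between its lowest and highest library, the widest span of the 9 genes. TAP2 stood at 57.6, 11.2, 49.3 and 21.7 CPM against 7.86, 91.7, 26.4 and 25.5 CPM. Knockdown 2, the third highest library for HLA-C and B2M, was the second lowest library for TAP2.

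PSMB8 and PSMB9 encode catalytic subunits that take the place of PSMB5 and PSMB6 in the immunoproteasome. PSMB8 stood at 53.8, 24.5, 41.5 and 19.7 CPM in the knockdown-labelled libraries and at 11.9, 103, 17.2 and 21.6 CPM in the control-labelled libraries. PSMB9 stood at 25.6, 8.73, 17.0 and 10.3 CPM against 6.66, 66.7, 13.1 and 4.61 CPM. Both were highest in control 2, and their second highest library was knockdown 1, not knockdown 3.

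NLRC5, the transactivator of class I genes, stood at 100.1, 33.8, 168 and 37.2 CPM in the knockdown-labelled libraries and at 23.2, 157, 36.6 and 44.7 CPM in the control-labelled libraries. Knockdown 1, knockdown 3 and control 2 lay at 100.1 CPM or above, and the other 5 libraries lay below 45 CPM.

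Tested between the labels, none of the 9 genes passed an adjusted p of 0.05 by edgeR, DESeq2 or limma-voom, and 0 of 9 had an unadjusted p under 0.05 by edgeR. Over all 21192 genes tested, edgeR called 0 (0%), 4.78% had an unadjusted p under 0.05, and DESeq2 called 0.606% of the 24437 genes it tested. The levels of the groups overlapped for all 9, while 0.882% of all genes were higher and 1.47% lower without overlap under the knockdown label. Fitted log2 fold changes, knockdown against control, were positive for 8 of the 9 genes with a median of 0.46, against a median of -0.05 over all genes tested. This direction turned with the settings: 5 of 9 were positive with library totals in place of TMM (all genes then had a median of -0.21), 2 of 9 without knockdown 3, 9 of 9 without control 2 and 0 of 9 with the muscle and salivary shares as covariates. Without the 4 libraries rich in muscle or gland markers, only knockdown 1, knockdown 3, control 2 and control 4 were left. In that fit 8 of 9 were positive, with a median of 0.45 and none called. It keeps both knockdown 3 and control 2, so it cannot show how far the direction rests on them.

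The largest fitted difference among the 9 was that of TAP1, at 0.87 (SE 1.04), and its 95% interval ran from -1.49 to 3.24 (adjusted p = 0.989, edgeR). NLRC5 followed at 0.75 (SE 0.781, interval -1.02 to 2.52), and B2M, HLA-E and HLA-C had 0.50, 0.49 and 0.46. HLA-B had 0.30 with an interval from -1.93 to 2.52, although its group means were 900.4 ± 690 CPM in the knockdown-labelled libraries and 945 ± 1278 CPM in the control-labelled libraries (SD, n = 4). TAP2 and PSMB8 had 0.25 and 0.17, and PSMB9 alone was negative, at -0.25 (SE 0.842). Each of the 9 intervals holds a 2-fold change in at least 1 direction, so such a change was not excluded by these libraries. Leaving out control 2 moved TAP1 to 2.54 and HLA-B to 1.85, and leaving out knockdown 3 moved them to -0.032 and -0.56. Neither was called in those fits.

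**Figure D2:**
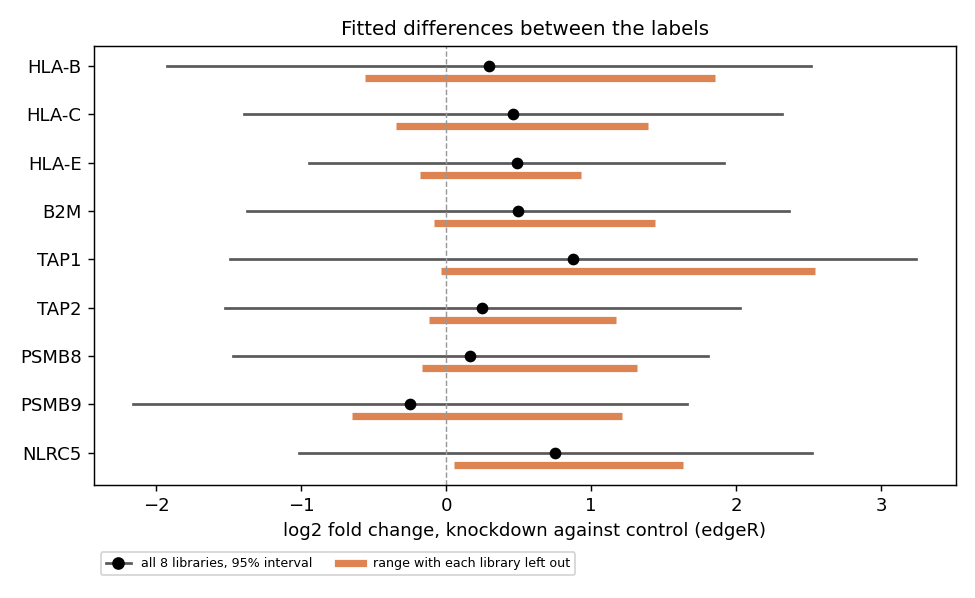
Fitted log2 fold change of each class I gene, knockdown against control (edgeR, 8 libraries), as a black point with its 95% interval; the orange bar is the range of the value when each library is left out in turn. All 9 intervals span 0, and the orange bars of 8 genes span 0 as well; that of NLRC5 runs from 0.057 to 1.63.

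Per kilobase of the principal transcript, B2M was the highest of the 9 with a median of 673 CPM per kb over the libraries. HLA-B had 311, HLA-C 262 and HLA-E 152 CPM per kb. A wide step followed, to 20.5 for PSMB8, 14.9 for PSMB9, 13.2 for TAP1, 10.4 for TAP2 and 6.00 CPM per kb for NLRC5. B2M was above HLA-B, HLA-E above PSMB8 and TAP1 above TAP2 in all 8 libraries, and HLA-C above HLA-E and PSMB8 above PSMB9 in 7. HLA-B was above HLA-C in 5 of 8, TAP2 above NLRC5 in 5, and PSMB9 above TAP1 in 2, so the order of these neighbours did not hold across libraries. All these orders hold for the principal transcript length only. The union of annotated exons was longer for each of the 9 genes, at 6079 against 1705 bases for B2M and 3051 against 1547 for HLA-B. Levels over those lengths were not computed. On the scale of log2(CPM + 1), the SD over the 8 libraries was 1.52 for TAP1, 1.27 for HLA-B and 0.717 for HLA-E, against a median of 0.650 over all genes at 1 CPM or more in 4 libraries.

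Ratios of 2 genes within a library do not depend on its total. PSMB8 over PSMB5, its constitutive counterpart, was 0.591, 0.514, 0.520 and 0.348 under the knockdown label and 0.209, 1.16, 0.383 and 0.157 under the control label. PSMB9 over PSMB6 was 0.402, 0.250, 0.331 and 0.188 against 0.163, 1.35, 0.364 and 0.0726. In control 2 alone the immunoproteasome subunit exceeded its counterpart in counts, for both pairs, and the knockdown libraries lay inside the control range for both. PSMB10 over PSMB7, the pair that completes the catalytic set, ran from 0.0343 to 0.0499 against 0.0241 to 0.0744. PSMB10 was low, at 2.13 to 6.47 CPM, and 34.8% of its exon bases lie in another annotated gene.

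TAP1 over TAP2 was 2.45, 3.51, 5.76 and 1.79 under the knockdown label and 2.29, 3.08, 1.30 and 1.27 under the control label. The mean log2 ratios, 1.62 ± 0.72 and 0.89 ± 0.63 (SD, n = 4), differed by 0.73 (two-sided exact permutation p = 0.171, adjusted p = 0.814 over 6 ratios). HLA-B over HLA-C was 1.59, 1.01, 1.48 and 1.81 against 1.25, 1.97, 0.924 and 0.966, and HLA-E over B2M was 0.316, 0.180, 0.321 and 0.465 against 0.355, 0.226, 0.409 and 0.521. None of the 6 ratios differed between the labels beyond the spread of the libraries, with exact permutation p from 0.171 to 0.971, where the smallest p that 4 against 4 allows is 0.0286. The log2 difference was 0.48 for PSMB8/PSMB5, with 0.098 without control 4 and 1.06 without control 2, and 0.03 for PSMB9/PSMB6, with -0.62 and 0.79 without the same libraries.

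**Figure D3:**
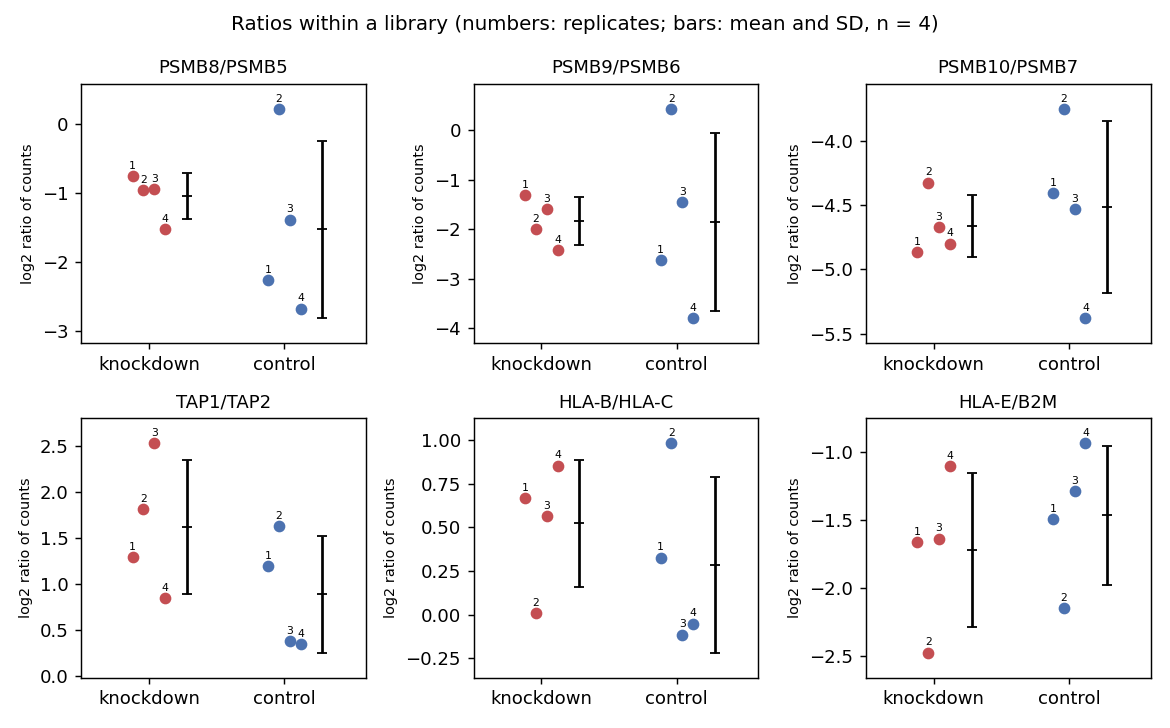
Log2 ratio of counts within each library for 6 gene pairs; red points are libraries labelled knockdown, blue those labelled control, small numbers are replicates, and black bars are the mean and SD (n = 4). The PSMB8/PSMB5 and PSMB9/PSMB6 ratios of control 2 lie above all other libraries, and no ratio separates the labels.

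The rest of the pathway was read from lists of named genes in the same edgeR fit. Of 8 other class I and class I-like heavy chain genes, 3 were fitted higher and 5 lower under the knockdown label, with a median of -0.16. None was called by edgeR or DESeq2. The 1 with an unadjusted p under 0.05 was CD1D, which presents lipids and is named after its value was seen (log2 fold change -2.32, SE 0.739, adjusted p = 0.981 by edgeR), at 0.137 to 4.87 CPM. Over all genes tested by edgeR, 4.78% had such a p. MR1, which presents vitamin B metabolites, ran from 18.6 to 103 CPM, FCGRT, the neonatal Fc receptor chain, from 5.05 to 104 CPM, and HLA-F, a nonclassical chain, from 8.17 to 81.9 CPM. Like most of the 9 genes, HLA-F was highest in control 2.

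Of 9 genes for peptide loading, trimming and chaperones of the endoplasmic reticulum, 6 were fitted higher and 3 lower, with a median of 0.20 and 0 called by edgeR. The chaperones CALR, CANX and HSPA5 had fitted log2 fold changes of 0.40, 0.16 and 0.23, and each had overlapping groups. ERAP2, an aminopeptidase that trims peptides to the length class I molecules hold, was the 1 gene of this list whose groups did not overlap. Over all genes tested, 0.882% were likewise higher without overlap under the knockdown label. ERAP2 stood at 22.7, 45.2, 61.8 and 25.7 CPM in the knockdown-labelled libraries and at 2.80, 12.04, 7.94 and 2.33 CPM in the control-labelled libraries. Every knockdown library was thus above every control, with means of 38.8 ± 18.3 and 6.28 ± 4.61 CPM (SD, n = 4). Its log2 fold change was 2.92 (SE 0.634), with an adjusted p of 0.981 by edgeR and 0.00833 by DESeq2. DESeq2 called 0.606% of all genes it tested. Over 18 alternative settings the change stayed between 2.42 and 3.44 and the adjusted p between 0.00833 and 1, and DESeq2 was the 1 setting that called it. ERAP1, its neighbour in function, had a fitted log2 fold change of -0.55 (SE 0.451), and its adjusted p was 0.981 by edgeR.

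Among 19 other proteasome genes, 8 were fitted higher and 11 lower, with a median of -0.01, 0 called by edgeR or DESeq2 and 0 with an unadjusted p under 0.05. The most abundant were PSMB4, a structural subunit (log2 fold change -0.23), PSME3 (-0.03) and PSME1 (-0.18), which encode proteasome activator subunits. The constitutive catalytic subunits PSMB5, PSMB6 and PSMB7 ranged from 44.8 to 138, from 34.9 to 63.8 and from 55.0 to 102 CPM.

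For 24 regulators of class I genes, 14 were fitted higher and 10 lower under the knockdown label, with a median of 0.13. None was called by edgeR or DESeq2, and 0 had an unadjusted p under 0.05. The most abundant were JAK1, a receptor-bound kinase, STAT2, a factor of the response to type I interferon, and IFNGR1, a chain of the interferon gamma receptor, with fitted log2 fold changes of -0.40, 0.18 and 0.55. STAT2 stood at 246, 86.8, 269 and 85.5 CPM in the knockdown-labelled libraries and at 72.6, 483, 92.7 and 119 CPM in the control-labelled libraries. Its high libraries were knockdown 1, knockdown 3 and control 2, as for NLRC5. IRF1, which binds interferon response elements of class I promoters, followed another order, with 21.9, 23.1, 20.8 and 17.4 CPM against 20.6, 66.8, 149.7 and 8.48 CPM. It was highest in control 3, where all 9 class I genes lay below the means of both labels.

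Among 20 other targets of interferon gamma, 14 were fitted higher and 6 lower, with a median of 0.41, 0 called by edgeR or DESeq2 and 0 with an unadjusted p under 0.05. PARP14, an ADP-ribosyltransferase, stood at 278, 63.0, 436 and 55.9 CPM against 40.5, 359, 90.3 and 176 CPM. WARS1, a tryptophanyl-tRNA synthetase, had a log2 fold change of 0.87, and TRIM22, an antiviral ubiquitin ligase, of 1.43. Summed over the list, the level was 1415, 457, 1965 and 346 CPM in the knockdown-labelled libraries and 305, 2150, 516 and 620.2 CPM in the control-labelled libraries, so that knockdown 1, knockdown 3 and control 2 again stood above the other 5. Of 9 interferon ligand genes, the most abundant were IFNE, at 0.062 to 3.09 CPM and highest in control 2, and IFNK, at 0.192 to 1.02 CPM. IFNG, which encodes interferon gamma, ran from 0 to 0.43 CPM, and IFNA2 had no count in any library. Only IFNE and IFNK were tested, with fitted log2 fold changes of -1.57 and -0.98, and neither was called by edgeR or DESeq2.

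**Figure D4:**
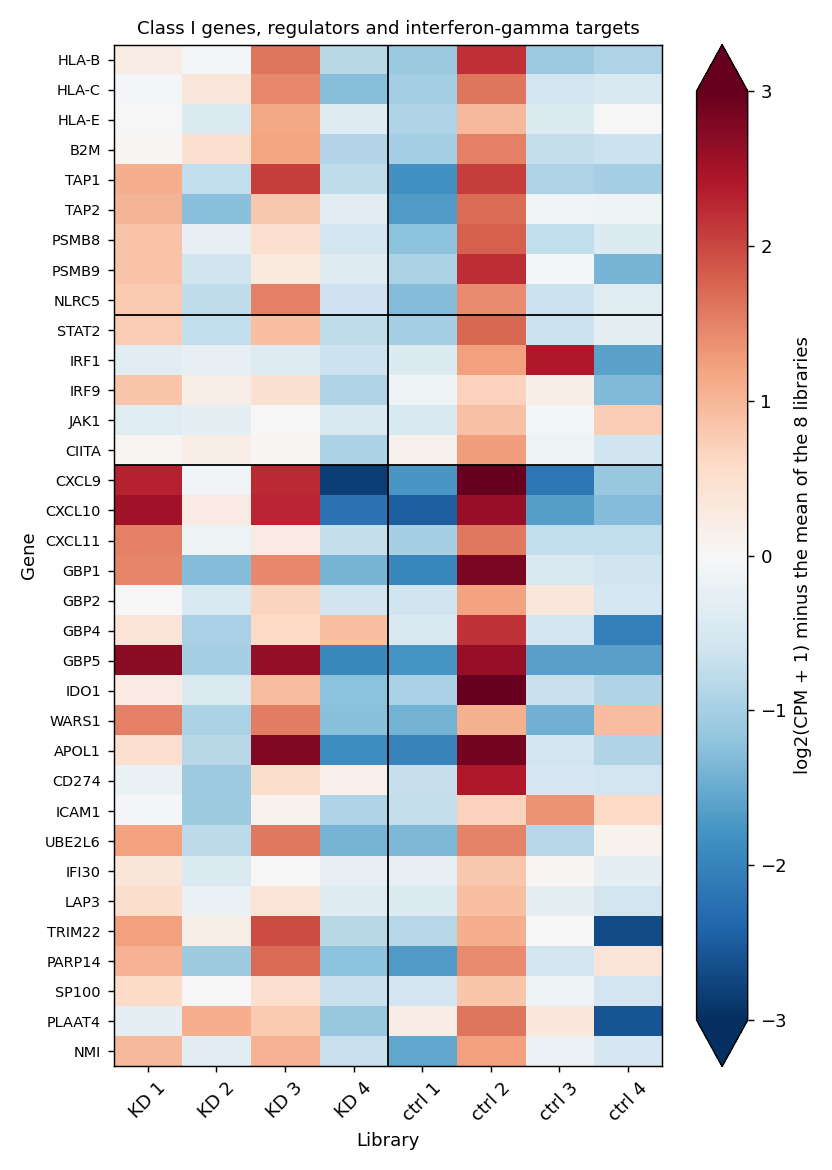
Level of the 9 class I genes (top block), 5 regulators (middle) and 20 other interferon gamma targets (bottom) in each library, as log2(CPM + 1) minus the mean of the 8 libraries (red above, blue below; colours end at 3). Knockdown 3 and control 2 are above the mean for all 9 class I genes, and IRF1 is highest in control 3.

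Relations over the 8 libraries were computed between the 9 genes and NLRC5, IRF1 and the summed leukocyte markers, 26 in all, on log2(CPM + 1). By Pearson's r, 7 passed an adjusted exact permutation p of 0.05, all of them among the 8 with NLRC5, and with PSMB9 the exception. By Spearman's rho, 1 passed. With library totals taken without the muscle and salivary lists, 3 of the 26 passed by r. With each library taken as its deviation from the mean of its own label, 10 passed by r and 6 by rho, among them all 8 and 4 of those with NLRC5. The permutations of these deviations ran over all 8 libraries and not within a label. Their p is therefore approximate and may be too small. Since 3 libraries stood apart from the other 5 in NLRC5, no coefficient over all 8 is given, and both clusters hold fewer than 6 libraries. Without knockdown 3 and control 2, r with NLRC5 over the other 6 libraries was 0.961 for TAP1, 0.952 for PSMB8 and 0.920 for TAP2, but 0.434 for HLA-C and 0.464 for B2M. Knockdown 1 still stood apart among these 6. With IRF1, r ran from 0.073 to 0.53 and rho from -0.12 to 0.62, and none passed (exact permutation, adjusted p from 0.371 to 0.881 for r and 0.299 to 1 for rho). Without control 3 and control 2, the libraries farthest from the median of IRF1, r ran from -0.065 to 0.63. As deviations from the mean of the own label, r with IRF1 ran from 0.129 to 0.581 and none passed (permutation over all 8 libraries, adjusted p from 0.219 to 0.741). That r ran from 0.714 to 0.898 without control 4 and control 3, the farthest libraries on that scale.

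Leukocytes express class I genes at high levels, and their markers varied beside the 9 genes. Summed over 20 leukocyte markers, the level was 131, 253, 155 and 77.6 CPM in the knockdown-labelled libraries and 144, 836, 183 and 358 CPM in the control-labelled libraries. Control 2 was the highest of the 8 in this sum, in COL1A1 and in 6 of the 9 class I genes, while knockdown 3, high in all 9, was the fourth lowest in leukocyte markers. CD79A and CD68 were at 0 in at least 1 library, and 0 of the 20 markers were at 0 in all. Of 19 markers tested, 4 were fitted higher and 15 lower under the knockdown label, with a median of -0.70 and 0 called by edgeR or DESeq2. An unadjusted p under 0.05 was reached by 4: MS4A1 (fitted log2 fold change 2.33), CSF1R (-1.50), TYROBP (-1.91) and FCER1G (-1.84), named after their values were seen. Over all genes tested by edgeR, 4.78% had such a p. The relation of this sum with the 9 genes had r from 0.34 to 0.62 and rho from 0 to 0.62 (exact permutation, adjusted p from 0.289 to 0.606 for r and 0.299 to 1 for rho). Without control 2 and knockdown 4, r ran from -0.73 to -0.05. On the scale of deviations from the own label, HLA-C had an r of 0.820 and a rho of 0.857 (adjusted permutation p = 0.0360 for r and 0.0464 for rho). B2M had an r of 0.855 and a rho of 0.857 (adjusted permutation p = 0.0282 and 0.0464). These permutations ran over all 8 libraries and not within a label, so these p are approximate and may be too small. Without control 2 and control 1, the r of HLA-C and B2M was 0.619 and 0.655. The part of leukocyte RNA in the class I levels was not tested.

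Other cell type lists were set beside the class I sum in the same way. Squamous keratinocyte markers summed to 1396 to 232405 CPM in the knockdown-labelled libraries and 599 to 72968 CPM in the control-labelled libraries, with 18 of 20 fitted higher under the knockdown label (median 2.68, 0 called by edgeR). DESeq2 called 2 of them, KRT1 and KRT10, and edgeR gave an unadjusted p under 0.05 for these and SPRR1B. These and the markers named below by p were named after their values were seen. Over all genes tested, DESeq2 called 0.606%, and edgeR gave an unadjusted p under 0.05 for 4.78%. Fibroblast markers summed to 340.4 to 967 CPM against 819.6 to 10847 CPM, with all 10 fitted lower (median -1.83, 0 called by edgeR or DESeq2, and an unadjusted p under 0.05 for COL1A2, COL3A1, PDGFRB, THY1 and FBLN1). The highest fibroblast sum was that of control 2. Skeletal muscle markers had all 20 fitted lower (median -1.98, 0 called by either tool and 0 with an unadjusted p under 0.05); TNNC1, MYL11 and MYL2 were at 0 in at least 1 library. Of 28 salivary gland markers, 16 were at 0 in at least 1 library, and of 11 tested 5 were fitted higher and 6 lower (median -0.33, 0 called by either tool, LCN1 with an unadjusted p under 0.05). The 8 endothelial markers summed to 136 to 552 CPM over the libraries, with 4 fitted higher and 4 lower and 0 called. Control 1, lowest for 7 of the 9 class I genes, had the lowest keratinocyte sum and the highest muscle and salivary gland sums. In knockdown 2, keratinocyte markers took 0.140% of counts, salivary gland markers 13.4% and muscle markers 4.07%. Its class I sum was 3548 CPM, against 3442 CPM in knockdown 1, where keratinocyte markers took 23.2%. Of the 9 genes, HLA-C and B2M were higher in knockdown 2 than in knockdown 1, and the others were lower. TAP1 stood at 39.3 against 141 CPM, TAP2 at 11.2 against 57.6 CPM and NLRC5 at 33.8 against 100.1 CPM. The part of these cell types in the class I levels was not tested beyond the fits given above.

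**Figure D5:**
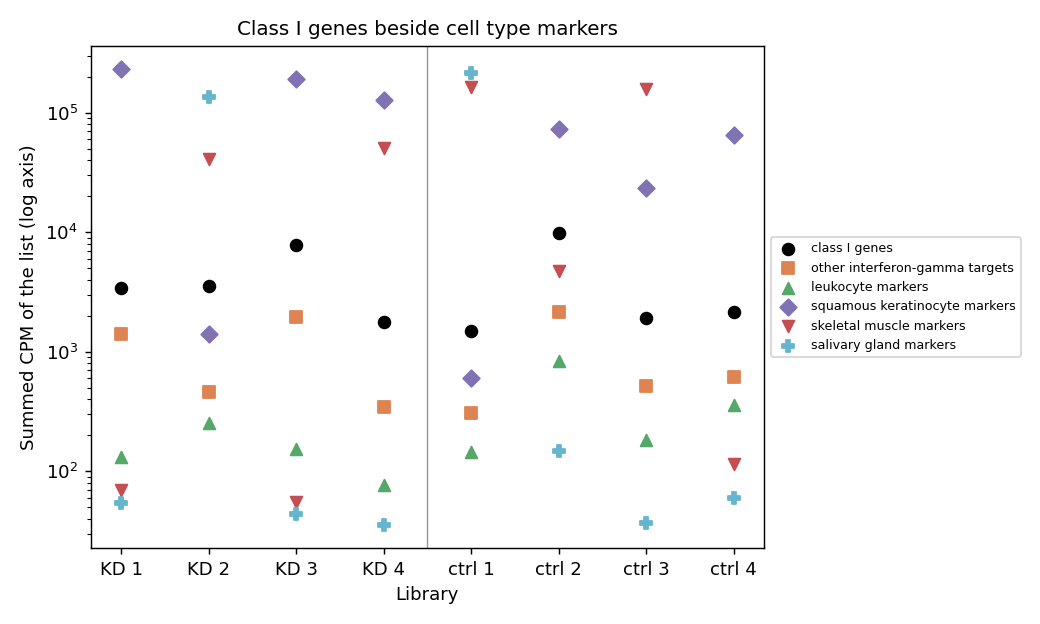
Summed level of the 9 class I genes (black circles) and of 5 other gene lists in each library, in CPM on a log axis. The class I sum and the interferon gamma targets are highest in control 2 and knockdown 3, while keratinocyte, muscle and salivary gland sums follow other orders.

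Likeness to the class I genes was measured as Pearson's r over 8 libraries between a gene's log2(CPM + 1) and the mean of the 9 standardised class I genes, for 9864 genes with a mean of 10 CPM or more. An r of 0.9 or more was reached by 60 of them. Being picked as the highest of 9864, the values below are descriptions, and all points share the same 8 libraries. For each of the 8 genes named, knockdown 1, knockdown 3 and control 2 stood above all the other libraries. How far each r rests on that gap was not tested. LY6E, a lipid-anchored surface protein, had the highest r, 0.978, with 46.0 CPM in its lowest library (control 1) and 524 in its highest (control 2). APOL1, an apolipoprotein that lyses trypanosomes, had 0.972, RNF213, a large ubiquitin ligase, 0.971, and STAT2 0.969. MVP, the major vault protein, had 0.968, PSTPIP2, an adaptor of the actin cytoskeleton, 0.962, GBP1, a guanylate-binding GTPase, 0.961, and HCP5, a noncoding RNA gene of the major histocompatibility complex, 0.958. Control 2 was the highest library for 7 of these 8 genes and knockdown 3 for PSTPIP2.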

How the data were processed

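RNA-seq read counts per gene were deposited by the authors as whole numbers with no normalization. STAR, featureCounts of Subread and the hg38 build are named per the submitters' processing notes; their versions, the annotation release and any strand setting were not given in the sources used here. Labels name polyA RNA, while their protocol describes depletion of ribosomal RNA. Symbols were matched to 62666 of 63241 rows by Ensembl identifier. Members and lists were chosen with earlier results of these data known; 1 further class I heavy chain gene and 1 regulator are not reported here, and the relations and the ranking by likeness were computed without the latter.

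CPM was computed from column totals, which ran from 30684584 to 61795990; counting error is small beside the spread of libraries. The labels were compared with edgeR 4.0.16 in R 4.3.3 (quasi-likelihood test, TMM, filterByExpr, 21192 genes, 4 against 4 libraries, Benjamini-Hochberg adjusted p under 0.05 over all genes), tested on simulated data. DESeq2 1.42.0, limma-voom (limma 3.58.1), other scalings, filters and covariates, a replicate block and leaving out each library were alternatives; so was leaving out the libraries rich in muscle or gland markers, which for the ratios was chosen after seeing the data. Ratios (pseudocount 0.5) and relations (pseudocount 1) used exact permutation tests in scipy 1.17.1. For relations of deviations from the label mean the permutations also ran over all 8 libraries, so their p is approximate. Named were COL1A1, the 9 genes, genes of the ratios and relations, the 8 genes most like the 9 and, per list, called members or the 3 most abundant plus members whose groups do not overlap; cell type lists are given by sums and counts, with single markers named only where stated as chosen after their values were seen.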

Additional observations from a re-analysis of the deposited data

Results flagged for a closer look

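Within a label, 9 of the 32 groups of 4 libraries looked at held a library set apart by a gap that exceeded Dixon's 95% critical value. Chance flags about 1 in 20 groups of independent, normally spread values. The gaps were taken on CPM without logs, and the groups share the same libraries, so that rate cannot be set against the flags here. In 8 of the 9 flagged groups the library was control 2. It held HLA-B at 2862 CPM, HLA-C at 1452 CPM, B2M at 3892 CPM, TAP1 at 283 CPM, PSMB8 at 103 CPM, PSMB9 at 66.7 CPM, NLRC5 at 157 CPM and COL1A1 at 8183 CPM, each above the other 3 controls. The ninth was HLA-E in knockdown 3, at 999 CPM. TAP2 in control 2, at 91.7 CPM, was its highest library as well but did not pass this threshold. The same library held the highest summed fibroblast (10847 CPM) and leukocyte (836 CPM) markers, and the part of either in these levels was not tested.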

How the results depend on the processing

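The count of class I genes called between the labels was 0 in all 18 alternatives tried (DESeq2, limma-voom, 2 other scalings, totals without TMM, 2 filters, covariates, a replicate block, each library left out and the muscle- or gland-rich libraries left out). Over all genes edgeR called 0 and DESeq2 148, and leaving out each library in turn gave 0 to 1, the 1 being SPRR2F, an epidermal cornified envelope gene, without knockdown 2. Adjusted p of the 9 genes ran from 0.675 to 1 over the 18 alternatives, which gave 162 fitted values. Of these values, 27 turned the fitted direction, and the cause was not tested. With library totals without TMM, HLA-B had -0.070, TAP2 -0.11 and PSMB8 -0.14. With muscle and salivary shares as covariates, HLA-B had -0.52, HLA-C -0.30, HLA-E -0.031, B2M -0.064, TAP1 -0.34, TAP2 -0.44, PSMB8 -0.35 and NLRC5 -0.17. PSMB9 had 0.25 with limma-voom. Left-out libraries gave HLA-B -0.56 to 1.85, HLA-C -0.34 to 1.39, HLA-E -0.18 to 0.93, B2M -0.084 to 1.44, TAP1 -0.032 to 2.54, TAP2 -0.12 to 1.17, PSMB8 -0.16 to 1.31, PSMB9 -0.65 to 1.21 and NLRC5 0.057 to 1.63, each highest without control 2. The lowest values came without knockdown 3, or without knockdown 1 for TAP2, PSMB8 and PSMB9. The log2 difference of PSMB9/PSMB6 ran from -0.62 to 0.79 that of PSMB10/PSMB7 from -0.44 to 0.11, PSMB8/PSMB5 from 0.098 to 1.06, TAP1/TAP2 from 0.43 to 0.99, HLA-B/HLA-C from 0.10 to 0.47 and HLA-E/B2M from -0.48 (without control 2) to -0.0012 (without knockdown 2). Relations that passed numbered 7, and 3 with library totals taken without the muscle and salivary lists. As deviations from the mean of the own label 10 passed, with an approximate p. The cause of these differences was not tested. The replicate numbers were not found to pair the libraries: same-numbered libraries had deviations correlated at -0.72 to -0.40, and none correlated best with its own number. With a replicate block edgeR called 0 genes, all 9 class I genes were fitted higher, and PSMB9 had 0.55. Depth limits little here, since the lowest count of a class I gene was 240.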
